A study of Homo sapiens with 2 samples.

Results

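The cells described here are 1898 cancer cells from a culture of A375, a human melanoma cell line, that was alive after a long attack by cytotoxic T lymphocytes. They were chosen by a rule on their own RNA: a persister barcode with at least 5000 unique molecular identifiers (UMIs, each 1 captured RNA molecule), at most 20% of them mitochondrial, and at least 1 UMI of 3 or more of the 8 genes IL6, NUPR1, KRT81, SCG5, UCA1, MMP9, TPST1 and IL24. Of the 5942 persister cells past the same limits on UMIs and mitochondrial share, 1898 met the rule (31.9%, 95% exact Clopper-Pearson interval 30.8% to 33.1%), out of 7144 persister barcodes and 17895 barcodes in the series. They are called state cells below. They were set against the 1153 persister cells with a UMI of none of the 8 genes, called 0-of-8 cells, and the other 2891 persister cells had 1 or 2 of the 8. In the parental library 321 of 9094 cells met the rule (3.53%, 3.16% to 3.93%).

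The persister group was A375 cells that remained after 15 days in coculture with T cells that recognise NY-ESO-1, a cancer-testis antigen, with fresh T cells added every 3 days and 7.5 ng/mL of interleukin-2 in the medium. The parental group was untreated A375 cells. Each group was 1 droplet library of 3′ ends, so cells are no replicates of a condition, no test or p-value is given between groups, and every interval is a 95% interval of counting error alone. A375 is a single cell line, the labels give no second culture, and the T cells themselves are not a group of the series.

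Interleukin-6 is a secreted cytokine that signals through the shared receptor chain IL6ST and the transcription factor STAT3, and many tumours make it under inflammatory stress. NUPR1 is a small nuclear stress protein whose gene is switched on by amino-acid and endoplasmic reticulum stress. Melanoma cells can lose pigment-cell identity and gain mesenchymal or neural crest features under attack by T cells or drugs, and secreted cytokines, matrix enzymes and stress genes are known parts of such changes.

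The persister library held 80802724 UMIs and the parental library 88214007, and the median kept cell had 11926 UMIs in the persister library and 8164 in the parental library. State cells were deeper than 0-of-8 cells, with medians of 14355.5 and 10280 UMIs and of 3709 and 2990 genes, and 20.8% of state cells were over 20000 UMIs against 2.43% of 0-of-8 cells. A rule that asks for detected genes favours deep cells, so counts were repeated with every cell reduced to 5000 randomly drawn UMIs. At that depth 1143 persister cells (19.2%) and 82 parental cells (0.902%) met the rule. The 20 melanoma cell markers summed to 4246 counts per 1000000 UMIs (CPM) in state cells, 4951 CPM in 0-of-8 cells and 4743 CPM in parental cells, while the pigment genes MLANA, TYR and TYRP1 had no UMI in state cells. Summed over 32 markers of T cells, state cells had 41.5 CPM and 0-of-8 cells 144 CPM, against 13900 CPM in the 168 persister barcodes with at least 8 of those markers and at least 1000 UMIs. The libraries shared 38 barcodes, and 5 state cells carried a barcode that was also a kept parental cell.

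The name IL6 and NUPR1 state holds for a minority of the cells. IL6 was detected in 260 of the 1898 state cells (13.7%) and NUPR1 in 810 (42.7%), both were found in 195 (10.3%), and 1023 (53.9%) had neither. IL24 was detected in 1863 (98.2%), IL24 and UCA1 together in 1526 (80.4%), and IL24, UCA1 and KRT81 together in 943 (49.7%). The rule could be met by 116 observed combinations of the 8 genes, of which the commonest was KRT81, UCA1 and IL24 alone, in 173 cells (9.115%). The genes that most state cells carried were thus IL24 and UCA1, which were also found in 69.2% and 39.8% of all persister cells, and by the rule's own choice these shares are a description. Leaving IL24 out of the rule left 1180 cells, while leaving out IL6 left 1890.

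The 8 genes were selected on these very cells, so their levels describe the choice and support nothing. In order of level, the cytokine gene IL24, of the IL-20 branch of the interleukin-10 family (chr1:206897443-206904139, plus strand, GRCh38), was at 941 CPM in state cells, 360 CPM in cells with 1 or 2 of the 8 and 11.35 CPM in parental cells. KRT81, a hair keratin gene (chr12:52285913-52291534, minus strand), was at 360 CPM in state cells, 21.2 CPM in cells with 1 or 2 of the 8 and 71.45 CPM in parental cells. KRT81 has the near-identical neighbour KRT86, so reads of the pair may have been split in the counting. UCA1, a long non-coding RNA first described in bladder cancer (chr19:15828206-15836326, plus strand), was at 245 CPM in state cells, 58.2 CPM in cells with 1 or 2 of the 8 and 5.09 CPM in parental cells. The rule itself keeps cells with 1 or 2 of the 8 low in these genes. Over all persister cells, KRT81 was at 147 CPM, IL24 at 524 CPM and UCA1 at 120 CPM, each above its level in parental cells. The share of cells with KRT81 was nearly level, however. With every cell reduced to the same number of UMIs, KRT81 was in 18.0% of persister cells and 18.2% of parental cells. At that depth IL24 was in 58.3% of persister cells and 3.30% of parental cells, and UCA1 in 26.6% and 1.85%.

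NUPR1 (chr16:28532708-28539174, minus strand) was at 114 CPM in state cells, 10.5 CPM in cells with 1 or 2 of the 8 and 1.82 CPM in parental cells. TPST1, an enzyme that adds sulphate to tyrosines of secreted proteins (chr7:66205199-66420543, plus strand), was at 97.0 CPM in state cells, 8.28 CPM in cells with 1 or 2 of the 8 and 36.8 CPM in parental cells. SCG5, a chaperone of a prohormone-cutting enzyme (chr15:32641676-32697098, plus strand), was at 74.2 CPM in state cells, 9.68 CPM in cells with 1 or 2 of the 8 and 8.68 CPM in parental cells. The rarest were the matrix-cutting enzyme gene MMP9 (chr20:46008908-46016561, plus strand), at 35.2 CPM in state cells, and IL6 (chr7:22725884-22732002, plus strand), at 17.65 CPM in state cells. MMP9 was at 2.99 CPM in cells with 1 or 2 of the 8 and 0.146 CPM in parental cells, and IL6 was at 0.224 CPM in cells with 1 or 2 of the 8 and 0.0364 CPM in parental cells, which is 3 UMIs over all kept parental cells. Over all persister cells TPST1 was at 40.8 CPM, close to its 36.8 CPM in parental cells.

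**Figure D1:**
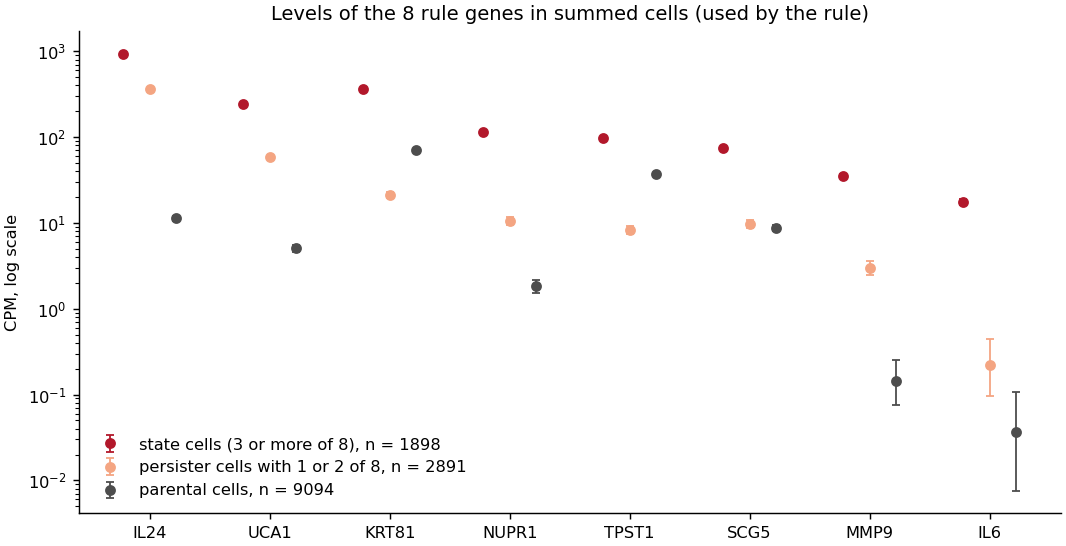
Level of each of the 8 rule genes, in CPM on a log axis, in UMIs summed over state cells, over persister cells with 1 or 2 of the 8, and over parental cells; bars are 95% Poisson intervals of counting error. IL24 stands highest in state cells at 941 CPM and IL6 lowest at 17.65 CPM; the rule itself holds the cells with 1 or 2 of the 8 low.

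At 5000 UMIs per cell the order of detection in state cells was IL24 in 91.2%, UCA1 in 56.7%, KRT81 in 45.4%, TPST1 in 34.0%, NUPR1 in 26.3%, SCG5 in 25.5%, MMP9 in 11.2% and IL6 in 6.64% of cells. The intervals of NUPR1 (24.4% to 28.4%) and SCG5 (23.5% to 27.5%) overlapped, and the others did not. Free RNA in droplets gives some UMIs to every barcode, and the 168 barcodes rich in T cell markers, whose median depth was 3483.5 UMIs, serve as a comparison. A UMI of IL24 was in 23.2% of them, UCA1 in 12.5%, KRT81 in 9.52%, SCG5 in 6.55%, TPST1 in 5.95%, MMP9 in 3.57%, NUPR1 in 1.79% and IL6 in 0 of 168. Their melanoma cell markers summed to 2430 CPM, against 4632 CPM in all kept persister cells. A single barcode held up to 34 UMIs of IL24 or 11 of MMP9. Some of those barcodes may hold a T cell and a cancer cell together, which was not tested. The shares are thus no clean measure of free RNA. Over all persister cells at 5000 UMIs, which were not chosen on the 8 genes, the shares were 58.3% for IL24, 26.6% for UCA1, 18.0% for KRT81, 10.3% for SCG5, 12.9% for TPST1, 4.12% for MMP9, 9.85% for NUPR1 and 2.17% for IL6. The T cell barcodes were shallower than that, and IL24 had the highest share of the 8 in both.

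The rule has a threshold at 3 genes, and the levels of the 8 genes on both sides of it are given as a description, since finding more of the genes raises their level by construction. The 747 cells with exactly 3 of the 8 had IL24 at 702 CPM, UCA1 at 160.5 CPM, KRT81 at 159 CPM, TPST1 at 36.1 CPM, NUPR1 at 28.7 CPM and IL6 at 0.750 CPM. The 1254 cells with exactly 2 had IL24 at 474 CPM, UCA1 at 101 CPM, KRT81 at 38.4 CPM, TPST1 at 12.9 CPM, NUPR1 at 18.9 CPM and IL6 at 0.369 CPM. The 397 cells with 6 to 8 of the genes (6.68% of persister cells) had NUPR1 at 261.5 CPM, KRT81 at 708 CPM and IL6 at 60.3 CPM.

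Over all 5942 persister cells at 5000 UMIs detection of the 8 genes went together, which describes the choice of the genes, since they were picked on these cells. The share of cells with the one gene was higher in cells with the other than in cells without it in 28 of 28 pairs, with exact intervals apart in all 28, and the ratio of the shares had a median of 2.94. The 28 pairs also had intervals apart without thinning and with another random thinning. NUPR1 was in 47.3% of cells with IL6 and 9.01% of cells without it, TPST1 in 55.8% and 12.0%, and KRT81 in 68.2% and 16.9%. NUPR1 was in 33.9% of cells with TPST1 and 6.28% of cells without it. In parental cells at the same depth IL6 was in 2 cells and MMP9 in 5, so their 13 pairs could hardly be measured. Of the other 15 pairs 12 were higher in parental cells, 9 of them with intervals apart. The pairs that were not higher were TPST1 with NUPR1, with SCG5 and with UCA1.

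**Figure D2:**
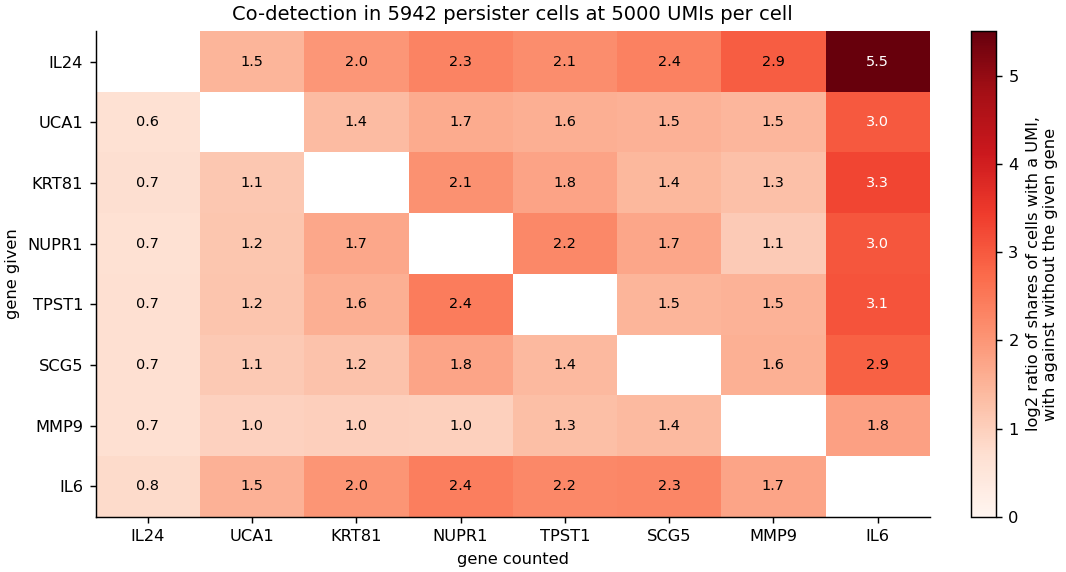
Log2 ratio of the share of persister cells with a UMI of the gene on the x axis, in cells with against cells without a UMI of the gene on the y axis, over 5942 cells thinned to 5000 UMIs. All squares off the diagonal are above 0, and IL6 was found in 129 cells at this depth.

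State cells lay together when the 8 genes were not used. This too describes the choice of cells, since other genes that move with the 8 were not left out. From 30 principal components of 2000 variable genes without the 8, a mean of 63.8% of the 15 nearest neighbours of a state cell met the rule, against 8.23% for 0-of-8 cells, where 32.4% was the mean over all persister cells. The share was 86.7% for cells with 6 or more of the 8. Among cells of 10000 to 20000 UMIs it was 65.4% for state cells and 8.45% for 0-of-8 cells.

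Promoters of the few genes on which these results turn show what the reference holds before each start. RefSeq's table for GRCh38.p14 has IL6, IL24, TPST1 and SCG5 among the 8, and NUPR1, KRT81, UCA1 and MMP9 are named only. Printed are the 250 bases before the start for IL6, IL24 and TPST1, and for ANKRD1 and THBS1, which stood among the genes furthest above 0-of-8 cells. Capitals mark matches, on either strand, to motifs chosen after the values were seen: kappaB (GGGANTTTC, in 1.12% of 35116 promoters of this length), TEAD (GGAATG, 11.9%), AP-1 (TGANTCA, 6.57%), CRE (TGACGTCA, 1.65%) and CARE (TGATGNAA, 3.14%).
IL6 at chr7:22726950-22727199, plus strand: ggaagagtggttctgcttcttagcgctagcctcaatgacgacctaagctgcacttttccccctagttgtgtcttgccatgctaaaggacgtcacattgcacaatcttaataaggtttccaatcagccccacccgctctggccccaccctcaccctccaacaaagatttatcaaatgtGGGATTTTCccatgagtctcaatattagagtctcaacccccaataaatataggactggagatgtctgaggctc
IL24 at chr1:206897193-206897442, plus strand: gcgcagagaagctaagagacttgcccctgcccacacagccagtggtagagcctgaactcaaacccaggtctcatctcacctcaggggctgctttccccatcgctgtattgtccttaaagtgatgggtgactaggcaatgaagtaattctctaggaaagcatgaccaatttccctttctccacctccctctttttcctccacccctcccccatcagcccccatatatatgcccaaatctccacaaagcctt
TPST1 at chr7:66205084-66205333, plus strand: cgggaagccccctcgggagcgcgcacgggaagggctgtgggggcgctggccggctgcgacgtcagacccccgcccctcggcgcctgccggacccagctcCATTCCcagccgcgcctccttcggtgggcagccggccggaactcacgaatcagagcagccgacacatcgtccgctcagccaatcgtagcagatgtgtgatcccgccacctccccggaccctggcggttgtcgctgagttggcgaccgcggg
ANKRD1 at chr10:90921088-90921337, minus strand: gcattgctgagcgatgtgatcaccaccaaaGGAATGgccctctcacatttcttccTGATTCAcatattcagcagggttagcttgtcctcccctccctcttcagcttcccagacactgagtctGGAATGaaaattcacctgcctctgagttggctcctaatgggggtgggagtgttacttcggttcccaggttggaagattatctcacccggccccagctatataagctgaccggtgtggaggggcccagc
THBS1 at chr15:39580829-39581078, plus strand: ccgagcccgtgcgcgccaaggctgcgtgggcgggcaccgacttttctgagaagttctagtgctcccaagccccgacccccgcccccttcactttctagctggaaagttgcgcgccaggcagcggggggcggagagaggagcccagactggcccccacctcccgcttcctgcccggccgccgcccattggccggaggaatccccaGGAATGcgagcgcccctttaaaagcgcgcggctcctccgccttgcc
The IL6 window has 1 kappaB match at base -73, counted from the start, and it lies inside the gene's span in GENCODE release 29, which begins further upstream. The TPST1 window has 1 TEAD match on the opposite strand at base -151. ANKRD1 has TEAD matches at -220 and -128 and an AP-1 match at -195, and THBS1 has a TEAD match at -46. The ANKRD1 match at -128 also lies inside that gene's span in GENCODE release 29. The IL24 window, like that of SCG5, has none of the 5 motifs. ESM1 and CAV1, also among the leading higher genes, were searched but are not printed, and their windows have none either. For CAV1 the first of 3 listed promoters was searched. A match describes letters and not a bound site.

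The genome-wide comparison asked which other genes differed between state cells and 0-of-8 cells of the same library. It is a description, since both sets were chosen on RNA of the same cells. UMIs were summed over each set and scaled to CPM, and a gene was measured when it reached 20 CPM in either. With the 8 left out, 5583 genes were measured. State cells were at least 2-fold above 0-of-8 cells for 138 of them (2.47%) and at least 2-fold below for 135 (2.42%). The log2 fold of all measured genes, computed on CPM + 1, had a median of 0.06. With every cell reduced to 5000 UMIs the counts were 143 and 155, and without barcodes that held 2 or more T cell markers they were 142 and 145.

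ESM1, a secreted proteoglycan best known from blood vessel cells, had the largest difference, at 77.5 CPM in state cells against 1.27 CPM in 0-of-8 cells, 61.0-fold (37.5 to 107). It was at 9.45 CPM in cells with 1 or 2 of the 8 and 2.52 CPM in parental cells, and reached 163 CPM in cells with 6 to 8 of the 8. ARHGAP29, a GTPase-activating protein, was at 123 CPM in state cells against 5.795 CPM in 0-of-8 cells, 21.2-fold (16.8 to 27.1). NNMT, an enzyme that methylates nicotinamide, was at 230 CPM in state cells against 12.3 CPM in 0-of-8 cells, 18.7-fold (15.9 to 22.0). SNAPC1, a subunit of the complex that starts small nuclear RNA genes, was the most abundant of the leading 15, at 527 CPM in state cells against 77.6 CPM in 0-of-8 cells and 103 CPM in parental cells. In state cells against 0-of-8 cells, SRGAP1, a GTPase-activating protein, was at 91.6 against 12.4 CPM and the keratin KRT80 at 71.2 against 4.76 CPM. In the same order, the Wnt inhibitor DKK1 was at 124 against 16.7 CPM and the growth factor binder IGFBP4 at 69.1 against 9.37 CPM. The chemokine CXCL1 was at 109.5 CPM in state cells against 13.65 CPM in 0-of-8 cells. SPANXB1, SPANXC, CYR61, ANKRD1, CAV1 and THBS1, described below, made up the rest of the leading 15.

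CAV1, THBS1 and IGFBP4, among the leading genes, were higher still in the untreated culture. CAV1, the coat protein of caveolae, was at 68.7 CPM in state cells and 5.56 CPM in 0-of-8 cells, and at 402 CPM in parental cells. THBS1, a secreted matrix glycoprotein, was at 307 CPM in state cells and 36.0 CPM in 0-of-8 cells, and at 365 CPM in parental cells. IGFBP4 was at 130 CPM in parental cells. NNMT at 101 CPM and ARHGAP29 at 47.05 CPM in parental cells lay between state cells and 0-of-8 cells. For CAV1, THBS1 and IGFBP4 the state cells therefore stood nearer to parental cells than the 0-of-8 cells did.

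Targets of the YAP and TEAD transcription factors, which respond to cell tension and contact, were in part among the higher genes. This list was put together after values were seen, so its count supports nothing. Lists were read with a floor of 5 CPM, where 312 of 9622 genes (3.24%) passed 2-fold upward and 368 (3.82%) downward. Past 2-fold were 8 of its 18 measured members upward and 1 downward, and the median log2 fold was 0.92. CYR61 was at 111 CPM in state cells against 8.495 CPM in 0-of-8 cells, ANKRD1 at 33.25 against 2.14 CPM, CTGF at 24.3 against 6.35 CPM and AJUBA at 19.6 against 2.62 CPM. THBS1, AMOTL2, CRIM1 and PTPN14 were the other 4, and NUAK2 was the lower one. Summed, the list was at 1474 CPM in state cells, 769 CPM in 0-of-8 cells and 985 CPM in parental cells. Of 31 measured genes of the actin cytoskeleton, also listed after values were seen, 7 passed 2-fold upward, beside 3.24% of all genes, and none downward, among them tropomyosin TPM1 (227 CPM in state cells against 46.1 CPM in 0-of-8 cells) and the actin bundler LIMA1 (343 against 96.1 CPM).

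**Figure D3:**
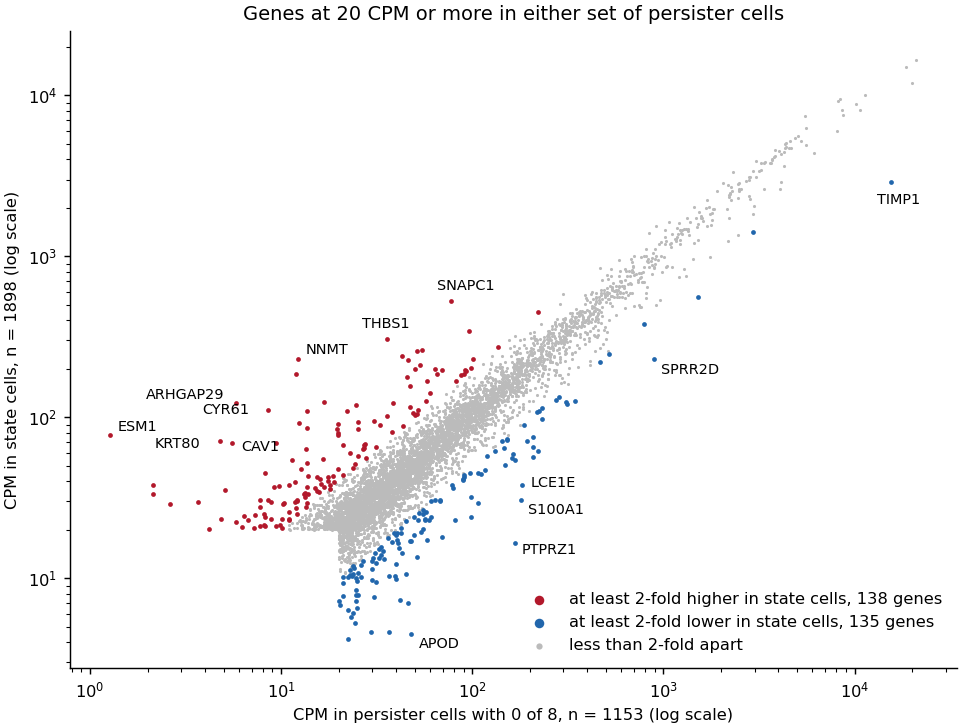
CPM of each measured gene in state cells (y axis) against 0-of-8 cells (x axis), both on log axes, with the 8 rule genes left out. The 138 red genes are at least 2-fold higher and the 135 blue genes at least 2-fold lower in state cells; ESM1 and ARHGAP29 lie furthest above the cloud, and PTPRZ1 and the abundant TIMP1 lie below it.

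Genes of the dedifferentiated and neural crest melanoma state were higher in part. That list had 9 of 22 measured members past 2-fold upward, beside 3.24% of all genes, and none downward, and 14 were above 0. Its median log2 fold was 0.68, beside 0.03 for all genes. NGFR, the nerve growth factor receptor that marks neural crest-like melanoma cells, was at 15.6 CPM in state cells against 1.67 CPM in 0-of-8 cells. The axon guidance ligand SLIT2 was at 10.0 against 0.556 CPM, the receptor EGFR at 19.5 against 6.99 CPM, the transcription factor TEAD4 at 20.4 against 7.22 CPM and the adhesion receptor CD44 at 197 against 92.0 CPM. AXL, a receptor kinase of the same state, was at 53.7 CPM in state cells against 28.2 CPM in 0-of-8 cells and stayed under 2-fold. JUN, LOXL2, CYR61 and CTGF were the other 4, and CYR61 and CTGF were also counted among the YAP and TEAD targets. FOXD3 (5.50 against 14.3 CPM) and ERBB3 (71.6 against 143 CPM), of the glial list described below, were lower in state cells.

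Melanocyte genes did not move in 1 direction. Past 2-fold were 2 of 12 measured members upward and 2 downward (median log2 fold -0.28). MITF, the main transcription factor of pigment cells, was at 10.8 CPM in state cells against 2.70 CPM in 0-of-8 cells and 13.8 CPM in parental cells. SOX10, which acts above MITF, was at 148.5 CPM in state cells against 201 CPM in 0-of-8 cells. MLPH was the other higher gene, and OCA2 and EDNRB were the lower ones.

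Several glial genes of the neural crest were lower in state cells. Of 16 measured Schwann cell and glial genes, a list made after values were seen, 10 passed 2-fold downward, beside 3.82% of all genes, and none upward, and the median log2 fold was -1.19. Since leading lower genes were put in it, the count supports nothing. PTPRZ1, a receptor phosphatase of glia (chr7:121873089-122062036, plus strand), was at 16.5 CPM in state cells against 167 CPM in 0-of-8 cells, 10.1-fold lower, and at 2.585 CPM in parental cells. The lipid carrier APOD was at 4.50 against 47.95 CPM, the growth cone protein GAP43 at 7.01 against 46.1 CPM, the receptor TNFRSF19 at 4.60 against 36.4 CPM and the calcium-binding S100A1 at 30.7 against 179 CPM. S100B, the usual glial and melanoma marker, was at 29.3 CPM in state cells against 108 CPM in 0-of-8 cells. PTPRZ1, APOD and GAP43 were near 0 in parental cells, at 2.585, 0.570 and 1.33 CPM.

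TIMP1, the secreted inhibitor of matrix metalloproteinases (chrX:47582313-47586789, plus strand), had the largest difference in CPM of all genes outside the rule, at 2877 CPM in state cells against 15550 CPM in 0-of-8 cells, 5.41-fold lower (log2 fold -2.43). It was at 9213 CPM in cells with 1 or 2 of the 8, 1760 CPM in cells with 6 to 8 and 357.5 CPM in parental cells. At 5000 UMIs a state cell held a mean of 13.3 TIMP1 UMIs and a 0-of-8 cell 76.8. Of 24 measured genes of metalloproteinases, inhibitors and matrix, 4 passed 2-fold upward and 5 downward, with MMP2, a gelatinase like MMP9, at 37.7 CPM in state cells against 10.96 CPM in 0-of-8 cells. Over the list 6 of the 24 members were above 0, and the median log2 fold was -0.36. The state cells had more MMP2 RNA and less TIMP1 RNA than 0-of-8 cells. The rule does not require MMP9, which was detected in 429 state cells (22.6%).

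Epithelial genes moved in both directions. Over the list 3 of 12 measured members (KRT7, KRT14 and KRT80) passed 2-fold upward and 4 (KRT15, DSP, LCE1E and SPRR2D) downward. The simple keratin KRT7 was at 120 CPM in state cells against 24.5 CPM in 0-of-8 cells, and KRT18 at 311 against 204 CPM. The cornified-envelope gene SPRR2D was at 229.5 CPM in state cells against 892 CPM in 0-of-8 cells, and LCE1E at 37.7 against 182 CPM. Parental cells had LCE1E at 0.0121 CPM and SPRR2D at 5.07 CPM. The phosphatase ACPP (24.1 against 98.1 CPM), the channel TRPV4 (10.6 against 45.1 CPM), the receptor NTSR1 (9.86 against 40.1 CPM), TESC, PRR4, MAF and AHCYL2 made up the rest of the 15 leading lower genes.

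Levels of the leading genes moved with the number of rule genes found, up to 3 of them. The leading genes were picked by their folds between state cells and 0-of-8 cells of this library. Their order from 0 to 3 was thus largely fixed by that choice, and the counts support nothing. From 0 to 3 genes found, all 15 leading higher genes were higher and all 15 leading lower genes lower at each step, and over all 6 steps this held for 11 of the 15 higher genes and 3 of the 15 lower ones. In cells grouped by that number at 5000 UMIs, from 0 to 6 or more, NNMT was at 17.4, 50.2, 115, 226, 321, 385 and 404 CPM. TIMP1 was at 14190, 8397, 4227, 2288, 1793, 1083 and 1026 CPM. HLA-B was at 3971, 3593, 3041, 2560, 2279, 1948 and 1866 CPM. ESM1 was at 2.43, 13.3, 26.5, 77.8, 107, 171 and 169.5 CPM, and ANKRD1 at 3.05, 5.46, 15.1, 47.8, 42.45, 46.1 and 23.2 CPM. The step from 2 to 3 genes was larger in ratio than that from 1 to 2 for 2 of the 15 higher genes, ESM1 and ANKRD1. It was also larger for 6 of the 15 lower ones. Genes were counted here at 5000 UMIs, so this step is not the rule's own threshold at full depth. The number of cells was 1860, 1827, 1112, 572, 288, 186 and 97.

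**Figure D4:**
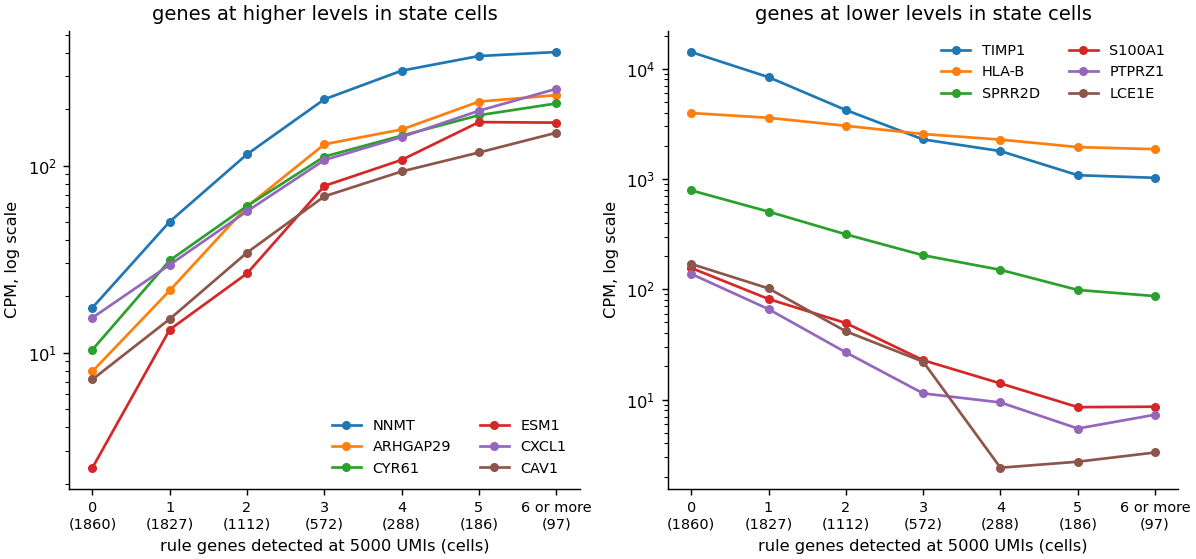
CPM on a log axis of 6 genes at higher levels (left) and 6 at lower levels (right) in state cells, in persister cells grouped by how many of the 8 rule genes had a UMI at 5000 UMIs per cell; numbers in brackets are cells. NNMT climbs to 404 CPM and TIMP1 drops to 1026 CPM in cells with 6 or more.

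The pathway that the name of the state points to was not higher as a whole. Of 19 measured genes of the IL-6 family and STAT3 signalling, none passed 2-fold upward and 1 downward, and the median log2 fold was -0.17. The shared receptor chain IL6ST was at 108 CPM in state cells against 66.3 CPM in 0-of-8 cells, STAT3 at 68.7 against 74.6 CPM, the feedback inhibitor SOCS3, a STAT3 target, at 6.68 against 3.57 CPM and the related cytokine LIF at 90.7 against 125 CPM. The family of IL24 had 2 measured members beside it: IL10 was at 1.61 CPM in state cells against 5.48 CPM in 0-of-8 cells, and IL10RB, a chain of the receptors of the family, was at 4.66 against 5.08 CPM.

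Inflammatory and secreted genes were higher only in part. Of 30 measured genes of NF-kB and TNF signalling 4 (IL32, CXCL1, CXCL2 and RIPK2) passed 2-fold upward and 2 (TRAF1 and LTB) downward, at a median of -0.04. LTB, lymphotoxin beta, was at 0.503 CPM in state cells against 11.8 CPM in 0-of-8 cells, and its log2 fold of -3.09 shrank to -0.21 without barcodes that held 2 or more T cell markers. Of 30 secreted cytokines, chemokines and growth factors 8 passed 2-fold upward, beside 3.24% of all genes, and 1, CCL5, downward, at a median of 0.30. CXCL2 was at 23.15 CPM in state cells against 4.84 CPM in 0-of-8 cells, and VEGFC, a growth factor for lymph vessels, at 29.6 against 3.65 CPM. CXCL8, by contrast, was at 130 CPM in state cells against 117 CPM in 0-of-8 cells. CCL5 is also a T cell marker, and 9 of the 11 measured T cell markers were at least 2-fold lower in state cells (summed 41.5 against 144 CPM). CD247, GZMK and XCL2 had no UMI in state cells. Barcodes with 2 or more T cell markers went the other way, at 3.90% of the deeper state cells and 2.69% of 0-of-8 cells.

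The stress pathways to which NUPR1 belongs were nearly level. Of 37 measured genes of the integrated stress response 2, ATF3 and STC2, passed 2-fold upward and none downward, at a median of 0.05. ATF4, its central transcription factor, was at 137 CPM in state cells against 132 CPM in 0-of-8 cells, DDIT3 at 388 against 456 CPM, TRIB3 at 126 against 122 CPM and CHAC1 at 60.7 against 58.9 CPM. ATF3 was at 112 CPM in state cells against 51.7 CPM in 0-of-8 cells, and STC2, a secreted glycoprotein, at 47.4 against 12.6 CPM. These 6 genes were lower in parental cells, with ATF4 at 69.4 CPM and DDIT3 at 18.8 CPM. Of 24 measured genes of the unfolded protein response, 18 of heat shock and 20 of cholesterol and fatty acid synthesis, none was 2-fold apart. ATF3 fell under 2-fold, at a log2 fold of 0.86, when all persister cells that did not meet the rule were the reference.

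MHC class I presentation genes were somewhat lower in state cells, by less than 2-fold per gene. Of 21 measured genes of MHC class I presentation none passed 2-fold, 1 had a log2 fold above 0, and the median was -0.44. B2M, the light chain, was at 5981 CPM in state cells, 8109 CPM in 0-of-8 cells and 676 CPM in parental cells. HLA genes share sequence, so their counts are uncertain one by one. Summed, the list was at 13900 CPM in state cells, 19230 CPM in 0-of-8 cells and 2392 CPM in parental cells. MHC class II genes had a median of -0.34, with 1 of 16 past 2-fold downward. Type I interferon response genes had a median of -0.54, with 2 of 38 past 2-fold downward, and interferon-gamma response genes -0.16, with 1 of 30 past 2-fold upward (CXCL11). The ligand CD274 (PD-L1) was at 25.6 CPM in state cells against 17.1 CPM in 0-of-8 cells, and PDCD1LG2 (PD-L2) at 7.11 against 1.19 CPM.

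Cell cycle genes were modestly higher. Of 52 measured genes of G2 and M phase 51 were above 0 and 3 (CDCA3, ECT2 and NEK2) past 2-fold upward, at a median of 0.60. Of 37 S phase genes 36 were above 0 and 3 (UNG, UHRF1 and PRIM1) past 2-fold upward, at a median of 0.53. Over the alternatives the log2 fold of ECT2 came down to 0.62, of NEK2 to 0.43, of UNG to 0.62, of UHRF1 to 0.68 and of PRIM1 to 0.57. MKI67 was at 151 CPM in state cells, 107 CPM in 0-of-8 cells and 311 CPM in parental cells. Summed, the G2 and M genes were at 5343 CPM in state cells, 3617 CPM in 0-of-8 cells and 9153 CPM in parental cells. They did not keep growing with the number of rule genes at 5000 UMIs, being at 4191, 4892, 5165, 5257, 5133, 4682 and 4338 CPM from 0 to 6 or more. State cells had more UMIs, and among cells of 10000 to 20000 UMIs the median came to 0.25 for G2 and M genes and 0.57 for S phase genes. MYC was at 20.1 CPM in state cells against 4.21 CPM in 0-of-8 cells, and the anti-apoptotic BCL2L1 at 47.85 against 19.8 CPM. BCL2L1 came to a log2 fold of 0.80 against all persister cells outside the rule.

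The other lists had few or opposed members past 2-fold, apart from the secretory granule and cancer-testis lists. AP-1 and immediate-early genes had 4 of 26 measured members past 2-fold upward and 4 downward, and genes of ERK output had 2 of 20 upward (EPHA2 and MYC) and none downward. EPHA2, a receptor kinase, was at 109 CPM in state cells against 22.0 CPM in 0-of-8 cells. Past 2-fold upward and downward were 2 and 2 of 31 p53 targets, 1 and 2 of 26 glycolysis and hypoxia genes, 0 and 1 of 32 oxidative stress genes, 1 and 2 of 30 autophagy and lysosome genes, 1 and 0 of 13 anti-apoptotic genes, and 1 and 1 of 14 checkpoint ligand genes. Secretory granule genes, the family of SCG5, had none of 11 measured members above 0 and 3 past 2-fold downward (VGF, PCSK1N and SYT11), with VGF at 65.0 CPM in state cells against 209 CPM in 0-of-8 cells. Of 14 long non-coding RNAs 3 passed 2-fold upward and 2 downward, with NEAT1 at 1407 CPM in state cells against 2958 CPM in 0-of-8 cells. Of 17 measured cancer-testis genes 6 passed 2-fold upward, beside 3.24% of all genes, and 0 downward. This is another list made after values were seen, so its count supports nothing. It was led by SPANXB1 (186.5 against 12.0 CPM) and SPANXC (38.15 against 2.14 CPM), near-identical copies whose reads may be shared.

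Inside the state, cells with IL6, NUPR1 or TPST1 differed from the rest in some genes, while KRT81, UCA1 and MMP9 set few or none apart. In none of the comparisons inside the state was the number of other rule genes held equal, and its part was not tested. Cells without a gene had to meet the rule by the others. Over all persister cells without thinning, NUPR1 was in 72.8% of cells with IL6 and 13.6% of cells without it. TPST1 was in 81.0% and 19.6%. KRT7 and CXCL1 were also higher, and LCE1E lower, in persister cells with many rule genes than in those with few. State cells with IL6 (260) set against those without it (1638) had 31 genes (0.562% of 5514 measured) at least 2-fold higher and 30 lower (0.544%). KRT7 was at 292 CPM in cells with IL6 against 89.2 CPM in cells without it, CXCL1 at 240 against 86.55 CPM, ESM1 at 169.5 against 61.3 CPM and the soluble pattern-recognition protein PTX3 at 22.4 against 7.54 CPM. LCE1E was at 3.81 CPM in cells with IL6 against 43.65 CPM in cells without it. Cells with NUPR1 (810) had 11 genes (0.203%) at least 2-fold higher and 5 (0.0922%) lower than those without it (1088), with the stress cytokine GDF15 at 113 CPM against 46.7 CPM. Cells with TPST1 (1070) had 21 genes (0.388%) higher and 6 (0.111%) lower, with ANKRD1 at 46.6 CPM in cells with it against 14.8 CPM in cells without it, and NNMT at 314.5 against 113 CPM.

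State cells with SCG5 (932) had 6 genes (0.112%) at least 2-fold higher and 1 (0.0186%) lower. As in cells with NUPR1, ESM1 (107 CPM against 45.7 CPM in cells without SCG5) and GDF15 (101 against 48.9 CPM) were among the higher ones. Other genes went the other way from cells with NUPR1: LCE1E was at 50.1 CPM in cells with SCG5 against 24.05 CPM in cells without it, and ACPP at 32.35 against 15.1 CPM, whereas in cells with NUPR1 ACPP was at 10.2 CPM against 35.2 CPM in cells without NUPR1. ANKRD1 was at 23.55 CPM in cells with SCG5 against 43.9 CPM in cells without it. KRT81 left 0 genes higher and 4 (0.0742%) lower by 2-fold, UCA1 left 1 (0.0185%) higher and 0 lower, and MMP9 left 0 of 5388 in either direction. Cells with each gene were also a little deeper, with medians of 16181 UMIs with IL6 and 14081 without it, and of 15097 UMIs with NUPR1 and 13867 without it. For IL24 the 1863 cells with it had 147 genes (2.52% of 5830) higher and 141 (2.42%) lower. Only 35 state cells lacked IL24, so these counts rest on few cells and are not read further.

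The same rule applied to the parental library, whose cells had no part in choosing the genes above, picked cells of another make-up. Of the 321 parental cells that met it, KRT81 was detected in 93.15%, TPST1 in 73.2%, SCG5 in 57.6% and IL24 in 41.7%. UCA1 was in 40.5%, NUPR1 in 15.3%, MMP9 in 1.25% and IL6 in 1 cell (0.312%). Over all 9094 parental cells the shares were 26.4% for TPST1, 25.9% for KRT81, 6.43% for SCG5 and 5.62% for IL24. They were 3.23% for UCA1, 1.495% for NUPR1, 0.132% for MMP9 and 0.0220% for IL6. A rule on any 3 genes favours those common in a library, and the order of the shares was nearly the same. Without thinning 1 parental cell had 6 or more of the 8. At 5000 UMIs none had, against 97 persister cells (1.63%). For this count of 0 of 9094 the lowest detectable share was 0.0330%, and the exact interval reached 0.0406%. Set against parental cells with 0 of the 8 (4613), these cells had 36 of 5633 measured genes at least 2-fold higher (0.639%) and 24 lower (0.426%).

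The genes that were higher in persister state cells tended to be higher in these parental cells too, at smaller size. Of the 138 genes, 107 were measured in the parental comparison, 82 of them were above 0 (76.6%), 16 at least 2-fold higher and none lower, with a median log2 fold of 0.38. Of the 135 lower genes 50 were measured, 8 of them above 0 (16.0%), 4 at least 2-fold lower and none higher, with a median of -0.33. Over the other 4728 genes measured in both, 44.7% were above 0 and the median was -0.02. SPANXB1 was at 137 CPM in parental cells that met the rule against 15.85 CPM in parental cells with 0 of the 8, KRT7 at 109 against 25.8 CPM, ARHGAP29 at 93.3 against 30.5 CPM and CYR61 at 50.1 against 18.4 CPM. These parental cells were also deeper, with a median of 11059 UMIs against 7667, and the part of depth was not tested. B2M was at 619 CPM in parental cells that met the rule against 698 CPM in those with 0 of the 8, and DDIT3 at 49.9 against 15.3 CPM. MKI67 was at 269 CPM in parental cells that met the rule against 322 CPM in those with 0 of the 8, the opposite order to that in the persister library. The persister log2 fold of MKI67, 0.49, came to 0.10 among cells of 10000 to 20000 UMIs and with the rule applied at 5000 UMIs.

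**Figure D5:**
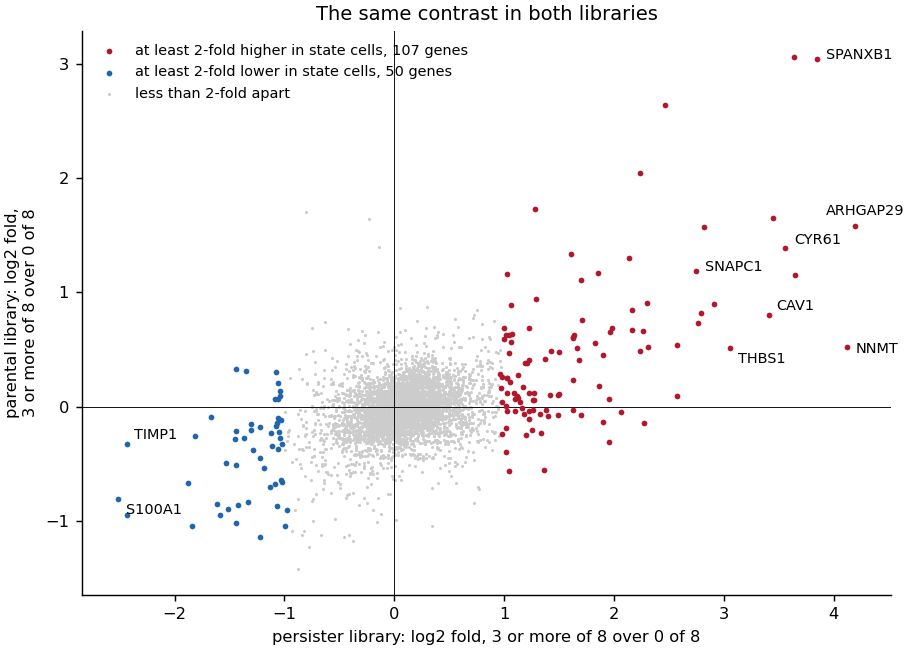
Log2 fold of each gene measured in both libraries, cells with 3 or more of the 8 over cells with 0 of the 8, in the persister library (x axis) and in the parental library (y axis). Of the 107 red genes 82 lie above 0 in the parental library, and of the 50 blue genes 8 do.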

How the data were processed

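The sources used were the deposited UMI counts of 2 libraries, 1 a group. Per the submitters' processing notes Cell Ranger 3.1.0 made them on GRCh38; the annotation release they used is not given in the sources. The deposited counts are raw whole-number counts per gene and barcode, not normalised. Gene positions came from GENCODE release 29, in which 33456 of 33538 gene IDs were found, and promoters from RefSeq.

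Cells had at least 5000 UMIs and at most 20% mitochondrial UMIs. No doublet caller was run: leaving out cells over 20000 UMIs, and leaving out barcodes that carried at least 2 T cell markers, were alternatives. Summed UMIs were scaled to 1000000, with exact Poisson intervals, and shares had exact Clopper-Pearson intervals, both at 95%. A lowest detectable share was set at 3 counts. Log2 folds used a pseudocount of 1 CPM. Genes were measured at 20 CPM in either set, lists at 5 CPM. UMIs are molecules of 1 library, so intervals cover counting error only. Thinning drew 5000 UMIs a cell without replacement. The analysis ran in Python 3.11.15 with numpy 2.4.6, scipy 1.17.1, pandas 2.3.3 and scikit-learn 1.9.0, and in edgeR 4.0.16 for TMM scaling of the counts. Sums and folds were tested on simulated data.

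The members and gene lists were chosen with earlier results of these data known, and 4 lists after values were seen. Named genes were the 8 rule genes, the 15 with the largest folds in each direction, up to 3 of each list, and a set listed with the lists; list members past 2-fold, list examples and genes inside the state were named after their values were seen. There were 28 lists and 6 cell type lists; B cell, myeloid and fibroblast markers summed to 0.336, 24.7 and 2.92 CPM in state cells, and to 0.159, 29.0 and 3.10 CPM in 0-of-8 cells. Keratinocyte markers, KRT14 and KRT10 among them, summed to 898 and 712 CPM in those sets. Values of some list members are not reported here.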

Additional observations from a re-analysis of the deposited data

Results flagged for a closer look

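Of the named genes that were at least 2-fold apart in the persister library, 5 had a log2 fold of the opposite sign in the parental library when cells with 3 or more of the 8 were set against cells with 0 of the 8, with counting intervals of the parental ratio that left out 1. Each library is 1 sample, so the difference between libraries was not tested. ECT2, a cell division gene, had a log2 fold of 1.02 in the persister library and -0.19 in the parental library. PRIM1, a DNA primase subunit, had 0.98 in the persister library and -0.24 in the parental library. SLIT2 had 2.83 in the persister library and -0.63 in the parental library, where it was at 4.22 CPM in cells with 3 or more of the 8 against 7.06 CPM in cells with 0. LGALS3, the lectin galectin-3, had -1.08 in the persister library and 0.30 in the parental library. PHLDA3, a p53 target, had -1.35 in the persister library and 0.31 in the parental library. Another 10 named genes under 2-fold in the persister library also had opposite signs, with both counting intervals leaving out 1: AREG, CDKN1A, DDIT3, GPX8, HSP90AA1, IER3, IRF1, LIF, MKI67 and TOP2A. Their parental log2 folds ran from -0.36 for IER3 to 1.70 for AREG.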

How the results depend on the processing

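No paired analysis was possible because each group is 1 library. The count of state cells was 1143 with the rule applied at 5000 UMIs, 3152 with 2 or more of the 8, 1151 with 4 or more, and 1180 with IL24 left out. Genes at least 2-fold higher numbered 138, and 76 against all persister cells that did not meet the rule, 312 with a floor of 5 CPM and 633 with 1 CPM. Genes at least 2-fold lower numbered 135, and 62, 368 and 860 under the same settings, and 206 with 4 or more of the 8. TMM scaling gave 145 higher and 128 lower, with the median of all genes at 0.09, equal thinning 143 and 155, and cells of 10000 to 20000 UMIs 158 and 162. Of the 119 named genes outside the rule, 73 were at least 2-fold apart by the ratio of CPM. None of these changed sign under any alternative, and 28 had a log2 fold under 1 in size in at least 1. The 28 include PRIM1 (0.98), OASL (-0.98) and RRAGD (-0.84), already under 1 in the main setting because log2 folds use a pseudocount. The floors of 5 and 1 CPM do not enter the fold of a gene. LTB came to -0.21 without barcodes with 2 or more T cell markers. Of 389 recomputed list medians 367 moved by less than the counting error typical of the list's genes, and 22 by more. The 28 medians at a floor of 5 CPM could not move, since the lists already used it. The counting error is that of single genes, which is wide for a median. The 28 pairs of rule genes stayed higher together under both other settings. With 1 library a group, no spread between cultures can be had, and genes under 5 CPM rest on few UMIs.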
